A study of Homo sapiens with 11 samples.

Results

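REP15, RAB15 and 8 genes of cellular iron handling were followed in the human RNA of 11 PC-3 xenograft tumours. The 10 genes are REP15, RAB15, TFRC, SLC11A2, FTH1, FTL, NCOA4, SLC40A1, IREB2 and ACO1, out of 25590 genes listed, of which 22078 had reads and 16630 were tested. They were looked up by symbol, and 10 of 10 had enough reads to be tested. REP15 was chosen by its difference between the treatment groups in these same tumours, so its difference is described here and no p-value of it is given. RAB15 was added as the protein partner of REP15, and the others because they take up, store, export or sense iron.

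PC-3 is a human prostate carcinoma line, grown here under the skin of athymic nude mice (Crl:NU-Foxn1nu), which lack T cells but keep macrophages and other innate cells. All hosts were males of 8 weeks at inoculation, and all tumours came from this 1 line. The PBS group (5 tumours) received phosphate-buffered saline. The A2M group (6 tumours) received A2M*, the transformed form of the proteinase inhibitor alpha2-macroglobulin, at 5.6 mg per intraperitoneal injection, and the comparison asked how this treatment changed RNA in the tumour cells. Each label numbers a separate tumour, and PBS values are listed below in the order of these numbers. Reads assigned to mouse were removed by the authors before counting, so the values below are for reads assigned to human.

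REP15 (Rab15 effector protein) binds the small GTPase RAB15 on endosomes and takes part in returning the transferrin receptor from the recycling compartment to the cell surface. The receptor, encoded by TFRC, brings iron-loaded transferrin into endosomes, where the transporter encoded by SLC11A2 (DMT1) moves the released iron into the cytosol. Iron that is not used is stored in ferritin, a shell of heavy chains (FTH1) and light chains (FTL), is released from it with the help of the ferritin cargo receptor NCOA4, and leaves the cell through ferroportin (SLC40A1). When iron is scarce, the iron regulatory proteins encoded by ACO1 and IREB2 bind iron-responsive elements, short RNA hairpins. Binding in a 5′ UTR blocks translation, and binding in the 3′ UTR of TFRC protects the RNA from decay, so that of these genes TFRC is the classical one in which the RNA level itself follows iron.

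The hairpins are shown because they are the elements on which this control acts. Protein-coding transcripts were searched over their whole length, coding sequence included. The pattern was the loop CAGTGN (N other than G) between arms of 5 paired bases, with a bulged C before the upper stem. It was found in 4 of 10 genes (40%), against 225 of 19807 protein-coding genes (1.14%). Most members were chosen because they handle iron, so nothing is read from the difference between these shares. Each match in the 4 genes is given 5′ to 3′ on the strand of its gene as 29 bases of DNA, with the loop in capitals and coordinates on GRCh37.
FTH1, 5′ UTR, chr11:61735046-61735074, minus strand: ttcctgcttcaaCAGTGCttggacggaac
FTL, 5′ UTR, chr19:49468592-49468620, plus strand: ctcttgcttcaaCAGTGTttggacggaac
SLC40A1, 5′ UTR, chr2:190445387-190445415, minus strand: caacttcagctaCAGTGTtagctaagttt
TFRC, 3′ UTR, chr3:195777850-195777878, minus strand: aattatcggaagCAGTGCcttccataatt
TFRC, 3′ UTR, chr3:195777446-195777474, minus strand: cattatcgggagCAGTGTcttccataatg
TFRC, 3′ UTR, chr3:195777381-195777409, minus strand: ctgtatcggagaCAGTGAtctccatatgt
TFRC, 3′ UTR, chr3:195777334-195777362, minus strand: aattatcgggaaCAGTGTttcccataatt
With 1 unpaired position allowed in the arms, 7 of 10 genes matched, but so did 8.22% of protein-coding genes. SLC11A2, some isoforms of which are known to carry such an element, was among them, and its match is shown for comparison with those of TFRC.
SLC11A2, 3′ UTR, chr12:51382052-51382080, minus strand: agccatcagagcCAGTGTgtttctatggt
A match is a description of the letters and their pairing, not a measurement of binding.

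Depth was 26042224 to 35874381 counted reads in the PBS tumours and 16958533 to 33223999 in the A2M* tumours. Levels are given as counts per 1000000 reads of the TMM-scaled library (CPM), and as reads per kilobase of exon scaled to library size (RPKM) where genes are compared with each other. The line was recognisable from its keratins and adhesion molecules, since KRT8, KRT18, KRT19, EPCAM and CDH1 summed to 2116 to 2599 reads per 1000000 counted reads (RPM) in PBS and 1734 to 2542 RPM in A2M* tumours, while KLK3 (prostate specific antigen), which PC-3 cells lack, had 0 reads in all tumours, which allows up to 0.0836 to 0.177 RPM. No gene of 16630 passed an adjusted p of 0.01 (0%) by edgeR's quasi-likelihood test, the smallest adjusted p was 0.599, 1178 genes (7.08%) had an unadjusted p below 0.05, and DESeq2 called 1 gene, REP15. REP15 was chosen by this same difference, so nothing is read from that call.

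Per length, the 10 genes spanned from the most abundant RNAs of these tumours to the middle of the distribution. FTH1 stood highest with 954 ± 105 RPKM (SD, n = 11 tumours), at percentile 99.8 of genes with reads. FTL followed with 507 ± 42.1 RPKM and TFRC with 51.2 ± 4.99 RPKM. Then came NCOA4 at 30.8 ± 2.98, RAB15 at 21.1 ± 2.11 and SLC11A2 at 15.7 ± 0.899 RPKM. Both iron regulatory proteins were lower, ACO1 at 9.24 ± 0.925 RPKM and IREB2 at 6.87 ± 0.773 RPKM. SLC40A1 had 3.50 ± 0.772 RPKM and REP15 was lowest over all tumours at 2.68 ± 1.14 RPKM, percentile 49.8. The ranges of ACO1 and IREB2 overlapped, although ACO1 was the higher in 11 of 11 tumours. REP15 was below SLC40A1 in 5 of 5 PBS tumours, with ranges of 1.10 to 2.15 and 2.53 to 3.62 RPKM. In the A2M* tumours their ranges of 2.57 to 4.63 and 2.41 to 5.09 RPKM overlapped, and REP15 was above SLC40A1 in 4 of 6. No other neighbours in the order overlapped.

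**Figure D1:**
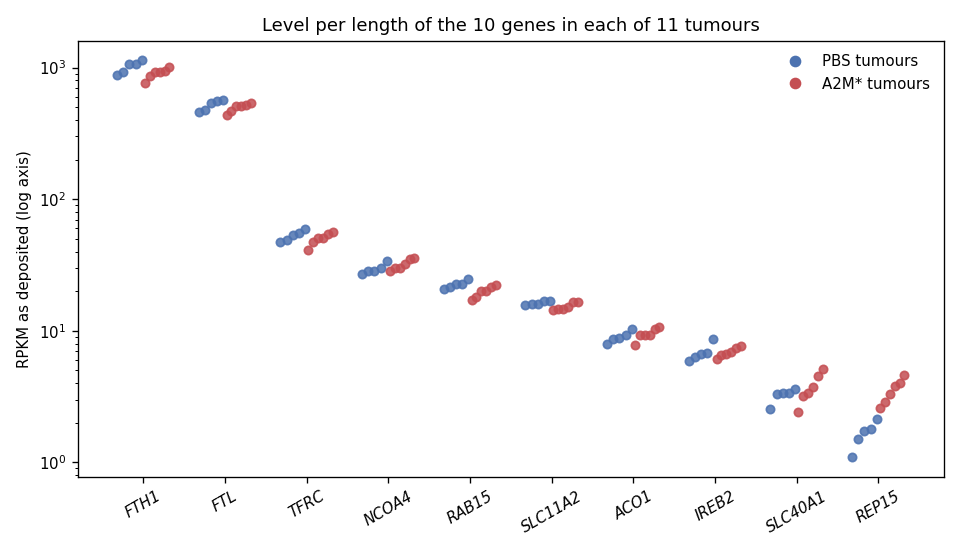
Each point is 1 tumour, 5 PBS in blue and 6 A2M* in red, the vertical log axis is RPKM as deposited, and genes are ordered by their mean over the 11 tumours. FTH1 and FTL lie above 439 RPKM in every tumour, and REP15 lies between 1.10 and 4.63 RPKM.

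REP15 had the largest difference of the 10 genes, with about 2.05 times the RNA in the tumours given A2M*. The PBS tumours held 1.96, 2.13, 1.30, 1.72 and 2.50 CPM, from 43 to 88 reads each. In the A2M* tumours the lowest value was 2.94, the median 3.97 and the highest 5.12 CPM, from 73 to 144 reads each. All 6 A2M* tumours lay above all 5 PBS tumours. Group means were 1.92 ± 0.450 CPM (SD, n = 5) and 3.96 ± 0.842 CPM (SD, n = 6). On the log2 scale they differed by 1.04 (SE 0.186), a fold of 2.05 with a 95% interval of 1.55 to 2.71. The interval is a description and no test, since these values chose the gene. Groups did not overlap in CPM for 118 of the 16630 genes (0.71%), REP15 among them by its selection, and nothing is read from that. Counting error alone accounts for a coefficient of variation of 12.9% in PBS and 9.79% in A2M* tumours, against 23.4% and 21.3% observed. These are bulk tumours, in which more cells with REP15 RNA and more of it per cell cannot be told apart.

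REP15 lies at chr12:27849380-27850529 on the plus strand of GRCh37 (ENSG00000174236). Of its exon bases, 852 are shared with MRPS35-DT, a long non-coding RNA on the opposite strand that was not among the counted genes. The library kit does not mark the strand, so reads of both RNAs cannot be told apart over those bases. Neither counted neighbour passed the test. PPFIBP1, a liprin that ends 883 bases upstream, had 209.6 ± 22.3 CPM in PBS and 231.5 ± 45.3 CPM in A2M* tumours, a log2 fold change of 0.14 (SE 0.125, edgeR adjusted p = 0.871). MRPS35, a protein of the small mitochondrial ribosome subunit that starts 13226 bases downstream, had 98.1 ± 5.11 and 100.6 ± 8.58 CPM, a log2 fold change of 0.04 (SE 0.0684, edgeR adjusted p = 0.945).

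The 250 bases before the start of REP15 are shown because it is the member whose RNA differed most. They lie at chr12:27849130-27849379 of GRCh37, plus strand, and are identical in the RefSeq promoter table, which is built on GRCh38.p14.
REP15 upstream: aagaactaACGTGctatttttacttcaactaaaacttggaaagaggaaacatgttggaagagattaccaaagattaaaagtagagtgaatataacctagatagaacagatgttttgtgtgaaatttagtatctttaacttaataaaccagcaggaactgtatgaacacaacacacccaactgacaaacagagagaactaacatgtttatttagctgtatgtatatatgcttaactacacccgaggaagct
Capitals mark ACGTG, the core of the hypoxia response element and of some E-boxes, which was searched for on both strands and matched 1 time, 242 bases before the start. It occurs in 21.4% of the 35116 promoters of that table, taken as 300 bases around each start. GC content was 33.2%, against a median of 58% over those promoters, and 3.61% of them had a lower value.

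RAB15, the GTPase that recruits REP15, had a lower mean level in A2M* tumours, but the difference did not pass the test. The 5 PBS tumours held 72.8, 79.8, 79.7, 69.6 and 85.4 CPM. The A2M* tumours ran from 56.9 through a median of 68.6 to 74.9 CPM. Values overlapped, with 4 of 6 A2M* tumours below all PBS tumours and 6 of 6 below the PBS mean. Means were 77.4 ± 6.28 and 66.7 ± 6.88 CPM, a log2 fold change of -0.22 (SE 0.0810, 95% interval -0.39 to -0.041, edgeR adjusted p = 0.642).

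RAB15 RNA exceeded that of its effector in every tumour. The ratio of RAB15 to REP15 in RPKM was 14.2 ± 3.69 in PBS tumours (11.5 to 20.6) and 5.92 ± 1.54 in A2M* tumours (3.73 to 7.85). This ratio contains the REP15 difference by which the gene was chosen and carries no test. Among RAB genes, 65 were listed and 61 tested, RAB15 ranked 22 by mean RPKM, and the median RAB gene had 6.93 RPKM. None of the 61 passed the threshold, 3 had an unadjusted p below 0.05 (RAB15 among them), all with lower means in A2M* tumours, a count near the 3.53% of all genes that met that p in that direction. Their median log2 fold change was -0.03, against -0.0021 over all genes.

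Of the 9 members other than REP15, 0 passed an adjusted p of 0.01 or of 0.05 (edgeR; smallest adjusted p = 0.642). At an unadjusted p below 0.05 there were 2 of 9, RAB15 and FTH1, both with lower means in A2M* tumours, where 3.53% of all genes met that p in that direction. The count was 0 without the PBS tumour PC3_tumor_127 and 1 (RAB15) without PC3_tumor_124 or PC3_tumor_125 (PBS) or PC3_tumor_128 or PC3_tumor_131 (A2M*). Without PC3_tumor_130 or PC3_tumor_112 (A2M*) it was 2, RAB15 and SLC11A2. Means were higher in A2M* tumours for 3 of 9 and lower for 6 of 9, with a median log2 fold change of -0.11.

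**Figure D2:**
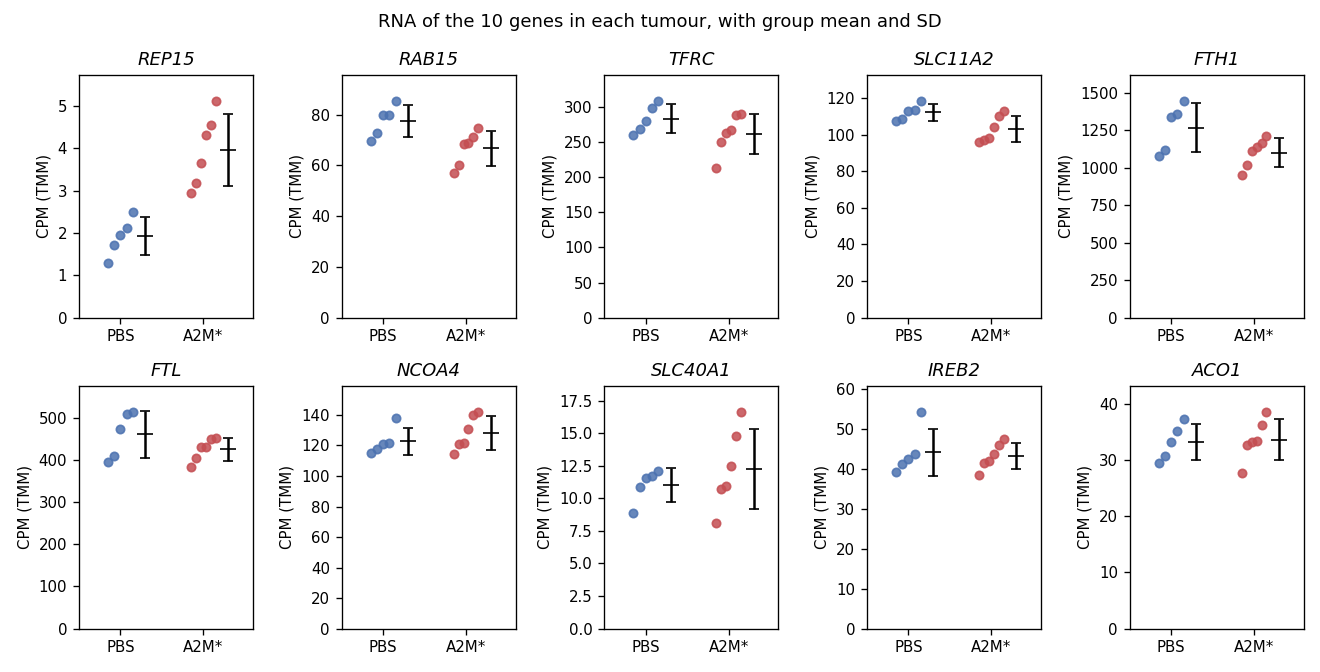
Each panel is 1 gene and each point 1 tumour, in CPM from 0, with bars for the group mean and SD (5 PBS tumours in blue, 6 A2M* tumours in red). Only the REP15 panel, the gene chosen for its difference, has groups that do not overlap.

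On the uptake side, TFRC and SLC11A2 both had slightly lower means in A2M* tumours, within the test's error. TFRC held 308.7, 268.5, 259.6, 279.4 and 298.9 CPM in the PBS tumours. In A2M* tumours it ran from 213.5 through a median of 264.4 to 289.3 CPM. The groups overlapped, and 2 of 6 A2M* tumours lay below all PBS tumours. The means of 283.0 ± 20.5 and 261.6 ± 28.1 CPM gave a log2 fold change of -0.11 (SE 0.0826, 95% interval -0.29 to 0.064, edgeR adjusted p = 0.840). The interval leaves room for a TFRC level in A2M* tumours between 0.817 and 1.05 times that in PBS tumours.

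SLC11A2, the endosomal iron transporter, held 107.2, 112.9, 118.5, 113.7 and 108.6 CPM in the PBS tumours and from 95.9 through a median of 101.1 to 112.9 CPM in the A2M* tumours. It was the steadiest of the 10 genes among PBS tumours, with a coefficient of variation of 3.98%, and 4 of 6 A2M* tumours lay below all PBS tumours. Its means of 112.2 ± 4.47 and 103.0 ± 7.18 CPM gave a log2 fold change of -0.12 (SE 0.0606, 95% interval -0.25 to 0.0066, edgeR adjusted p = 0.718).

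Ferritin RNA was likewise a little lower on average after A2M*, without passing the test. FTH1 held 1119.8, 1356.2, 1444.6, 1074.6 and 1339.4 CPM in the PBS tumours and from 948.7 through a median of 1124.4 to 1209.2 CPM in A2M* tumours. PBS tumours fell into a lower pair (the first and the fourth listed) and a higher group of 3, and the A2M* values overlapped the lower pair. Means of 1266.9 ± 160.8 and 1098.8 ± 96.9 CPM gave a log2 fold change of -0.21 (SE 0.0942, 95% interval -0.41 to -0.0031, edgeR adjusted p = 0.699). FTL had the same low and high PBS tumours, at 410.7, 509.5, 515.4, 396.8 and 473.7 CPM, and ran from 384.5 through a median of 431.8 to 453.6 CPM in A2M* tumours. Its log2 fold change was -0.11 (SE 0.0828, edgeR adjusted p = 0.838), from means of 461.2 ± 55.1 and 425.9 ± 26.8 CPM.

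Heavy chain RNA exceeded light chain RNA per length in every tumour. The ratio of FTH1 to FTL in RPKM was 1.95 ± 0.0484 in PBS tumours (lowest 1.89, median 1.93) and 1.83 ± 0.110 in A2M* tumours (lowest 1.68, median 1.83), and the groups overlapped. FTH1 shares sequence with processed copies, to which reads can be split. FTH1P3 had 9.87% to 10.6% as many counts as FTH1 in each tumour, and its log2 fold change of -0.20 (SE 0.0895, edgeR adjusted p = 0.699) was close to that of FTH1. FTLP10 had 8 to 21 reads per tumour, FTH1P18 had 5 or fewer and FTHL17 had 0. Reads shared by a gene and its copies that were left uncounted are not measured by these values, so the FTH1 and FTL levels are uncertain by an unknown amount.

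NCOA4, which delivers ferritin to lysosomes, held 121.0, 121.4, 114.8, 138.1 and 117.9 CPM in PBS tumours and from 114.1 through a median of 126.4 to 142.2 CPM in A2M* tumours. The high PBS value was PC3_tumor_126, which had the lowest FTH1 and FTL of its group. Its means of 122.6 ± 9.02 and 128.3 ± 11.2 CPM differed by less than the spread (log2 fold change 0.07, SE 0.0728, edgeR adjusted p = 0.906).

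SLC40A1, the iron exporter, was the scarcest of the 9, with a biological coefficient of variation of 18.4% in the fit, next to 19.3% for REP15. PBS tumours held 10.9, 8.86, 11.7, 12.1 and 11.6 CPM, and the A2M* tumours ran from 8.13 through a median of 11.7 to 16.7 CPM. The A2M* tumours lay on both sides of the PBS range, with 3 of 6 above it and 1 below it. The log2 fold change of 0.15 (SE 0.159, 95% interval -0.19 to 0.49, edgeR adjusted p = 0.900) has the widest error of the 9.

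The RNAs of the iron regulatory proteins had the smallest differences of the 10. IREB2 had 44.2 ± 5.96 CPM in PBS tumours (39.2 to 54.4) and 43.3 ± 3.26 CPM in A2M* tumours (38.6 to 47.5), a log2 fold change of -0.03 (SE 0.0878, edgeR adjusted p = 0.970). ACO1 had 33.2 ± 3.22 CPM (29.4 to 37.4) and 33.7 ± 3.68 CPM (27.8 to 38.7), a log2 fold change of 0.02 (SE 0.0902, edgeR adjusted p = 0.976). Neither direction was stable, since the sign turned for both when single tumours were left out. The 95% intervals reach -0.22 to 0.16 for IREB2 and -0.17 to 0.22 for ACO1.

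By the hairpins shown above, the 5′ UTR genes FTH1, FTL and SLC40A1 had log2 fold changes of -0.21, -0.11 and 0.15, and TFRC with its 3′ UTR hairpins had -0.11. The 5′ UTR genes had means in both directions, and none of the 4 passed the test. Protein levels were not analysed here.

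The wider pathway was read from 5 lists, none of whose genes are members. Of their genes 121 were tested, and 0 passed an adjusted p of 0.01 (edgeR). At an unadjusted p below 0.05 there were 12, against 7.08% of all genes. Of these 12, 10 were in the hypoxia-inducible list, which was written with earlier results of these tumours known, so nothing is read from the pooled count. The transferrin cycle and heme lists held 1 each, and the iron storage and mitochondrial lists 0. In the transferrin cycle list 49 of 51 genes were tested, 21 with higher and 28 with lower means in A2M* tumours, and the median log2 fold change was -0.018. The list of iron storage, export and sensing genes (14 of 19 tested) had 7 higher and 7 lower and a median of -0.006. Mitochondrial iron and iron-sulfur cluster genes (28 of 28 tested) had 13 higher and 15 lower with a median of -0.009, and heme genes (16 of 17) had 8 each way with a median of -0.013. RAB4B and FTMT, the mitochondrial ferritin, were listed at 0 in every tumour.

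3 genes of the iron lists stood first in the higher direction by p, without passing. EHD3, an EH-domain protein of endosomal recycling, had 15.8 ± 2.04 CPM in PBS and 21.2 ± 3.16 CPM in A2M* tumours, a log2 fold change of 0.42 (SE 0.115, edgeR adjusted p = 0.599), with 6 of 6 A2M* tumours above the PBS mean. ALAD, the second enzyme of heme synthesis, had 42.4 ± 1.05 and 47.6 ± 2.24 CPM, a log2 fold change of 0.16 (SE 0.0556, edgeR adjusted p = 0.640), and its groups did not overlap. That was so for 0.71% of all genes, and ALAD was named for its small p, so nothing is read from it. HSCB, a co-chaperone of iron-sulfur cluster transfer, had 10.7 ± 0.602 and 12.2 ± 1.19 CPM, a log2 fold change of 0.18 (SE 0.0866, edgeR adjusted p = 0.71).

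In the lower direction the first genes by p were all hypoxia-inducible. All 14 genes of that list had lower means in A2M* tumours, 10 at an unadjusted p below 0.05 (edgeR). Of all genes, 3.53% met that p in that direction. The median log2 fold change of the list was -0.595, against -0.0021 over all genes. The list was written with earlier results of these tumours known, so this is no independent evidence of its direction. ANGPTL4, a secreted lipase inhibitor, had 98.9 ± 28.9 CPM in PBS and 40.0 ± 18.9 CPM in A2M* tumours, a log2 fold change of -1.31 (SE 0.302, edgeR adjusted p = 0.599), and its groups did not overlap. PDK1, which restrains pyruvate entry into mitochondria, had 70.6 ± 14.1 and 41.5 ± 11.9 CPM, a log2 fold change of -0.77 (SE 0.192, edgeR adjusted p = 0.599), again without overlap. ANGPTL4 and PDK1 were named for their small p, and 0.71% of all genes had no overlap, so nothing is read from that. PGK1, a glycolytic enzyme, had 1572.6 ± 291.5 and 1163.7 ± 183.0 CPM, a log2 fold change of -0.43 (SE 0.137, edgeR adjusted p = 0.640). Summed over the list, the level was 3984 to 8104 RPM in PBS and 3215 to 5814 RPM in A2M* tumours. TFRC is itself known as a hypoxia-responsive gene, and its mean was lower in the same tumours, with an interval that crosses 0. Of the 9 members other than REP15, 6 had lower means there, while SLC40A1, NCOA4 and ACO1 had higher means. The part of the hypoxia-inducible genes in the differences of the members was not tested.

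**Figure D3:**
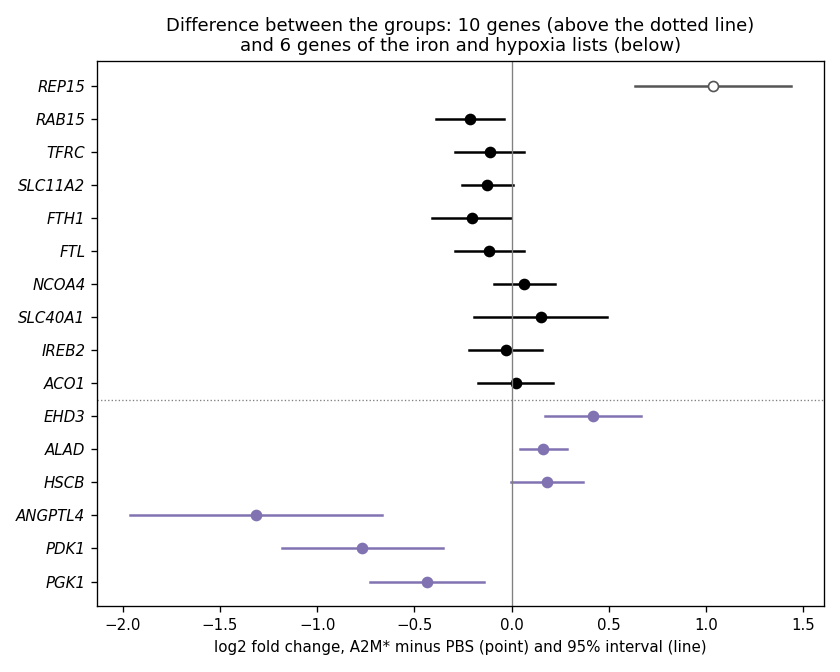
Points are edgeR log2 fold changes of A2M* against PBS tumours (5 and 6 tumours) and lines their 95% intervals, on a linear axis. The open point is REP15, which was chosen for this difference, and the intervals of TFRC, SLC11A2, FTL, NCOA4, SLC40A1, IREB2 and ACO1 cross 0.

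Host cells are of mouse, and their reads were set aside before counting, so the human counts of other cell types' markers say nothing about the host cells in the tumours. They are given as a check of what the human reads hold. Erythroid markers summed to 2.99 to 3.99 RPM in PBS and 2.61 to 5.24 RPM in A2M* tumours, with HBA1, HBA2 and AHSP at 1 read or fewer and HBB at up to 18 reads in PBS tumours and 0 in A2M* tumours. Most of that sum came from SLC4A1, at 2.85 to 3.55 RPM in PBS and 2.58 to 5.02 RPM in A2M* tumours. Leukocyte and macrophage markers were looked at because macrophages express FTH1, FTL and SLC40A1 strongly, and they summed to 33.1 to 41.6 RPM and 34.4 to 42.0 RPM, with CD163 at 2 reads or fewer. CD68 gave most of that sum, at 19.4 to 28.4 RPM in PBS and 20.8 to 27.8 RPM in A2M* tumours. LYZ held 6.01 to 6.87 RPM and 6.63 to 7.53 RPM. Fibroblast and endothelial markers summed to 335 to 682 RPM and 338 to 938 RPM, mostly from COL1A1, with DCN at 3 reads or fewer. The summed ranges overlapped between the groups for these 3 lists. Of the 5 fibroblast and endothelial markers tested, 2 had an unadjusted p below 0.05 (edgeR), against 7.08% of all genes. They were COL1A2 with a log2 fold change of 0.73 (SE 0.335, edgeR adjusted p = 0.699) and VWF with -0.42 (SE 0.168, edgeR adjusted p = 0.648). They went in opposite directions at low counts, 38 to 170 reads for COL1A2 and 11 to 33 for VWF, so nothing is read from that count. The part of these 3 lists in the levels of the members was not tested.

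Variation between tumours of the same group leaves out the difference by which REP15 was chosen, and was examined for members that went together. After subtraction of the group means of log2 CPM, 45 pairs were correlated over 11 tumours, with exact permutation inside the groups (two-sided, smallest possible p 1.16e-05). None of the 45 passed a Benjamini-Hochberg adjusted p of 0.05 by Pearson's r, 5 had an unadjusted p below 0.05, and 1 passed by Spearman's rho.

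FTH1 and FTL, the chains of 1 protein shell, had the highest coefficient. Pearson's r was 0.900 (exact permutation p = 0.00317, adjusted p = 0.0516) and Spearman's rho 0.945 (exact permutation p = 0.000197, adjusted p = 0.00885). The coefficient was 0.982 among the PBS tumours and 0.746 among the A2M* tumours, and 0.811 without the 2 tumours farthest from the FTH1 median. With the A2M* tumour PC3_tumor_128 left out r was 0.951 (exact permutation, adjusted p = 0.00313), and with PC3_tumor_131 left out 0.942 (exact permutation, adjusted p = 0.0281). Only these runs passed. Over all tumours left out singly, r fell as low as 0.857 and the adjusted p rose to 0.180 (exact permutation).

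RAB15 ran against NCOA4 and IREB2. For RAB15 and NCOA4 r was -0.837 and rho -0.682 (exact permutation p = 0.00343 and 0.0352, adjusted p = 0.0516 and 0.276). For RAB15 and IREB2 r was -0.766 and rho -0.727 (exact permutation p = 0.00344 and 0.0156, adjusted p = 0.0516 and 0.234). NCOA4 and IREB2 went together, at r 0.787 and rho 0.636 (exact permutation p = 0.00758 and 0.0457, adjusted p = 0.0853 and 0.294). FTH1 ran against NCOA4 at r -0.677 and rho -0.764 (exact permutation p = 0.0214 and 0.00560, adjusted p = 0.193 and 0.126). Without the 2 tumours farthest from the median of the gene named first in each pair, these r were -0.727, -0.717, 0.525 and -0.575. PC3_tumor_126 (PBS) and the A2M* tumours PC3_tumor_130 and PC3_tumor_131 combined the high NCOA4 values with the low RAB15 values.

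TFRC was lower where ferritin was higher, but this did not pass the test. Its r was -0.581 with FTH1 and -0.567 with FTL (exact permutation p = 0.0584 and 0.0518, adjusted p = 0.292 for each), with rho -0.655 and -0.636 (exact permutation p = 0.0327 and 0.0368, adjusted p = 0.276 for each). No relation of REP15 with its partner or with the receptor was detectable inside the groups. With RAB15 r was -0.07 and rho 0.06 (exact permutation p = 0.836 and 0.864, adjusted p = 0.917 and 0.972), and with TFRC r was 0.24 and rho 0.14 (exact permutation p = 0.503 and 0.698, adjusted p = 0.700 and 0.880). The strongest coefficient of REP15 was with SLC11A2, at r -0.606 and rho -0.509 (exact permutation p = 0.0591 and 0.113, adjusted p = 0.292 and 0.460). Without the 2 tumours farthest from the REP15 median this r was -0.264. At 43 to 144 reads per tumour, counting error takes a share of the spread of REP15 and limits any such coefficient.

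**Figure D4:**
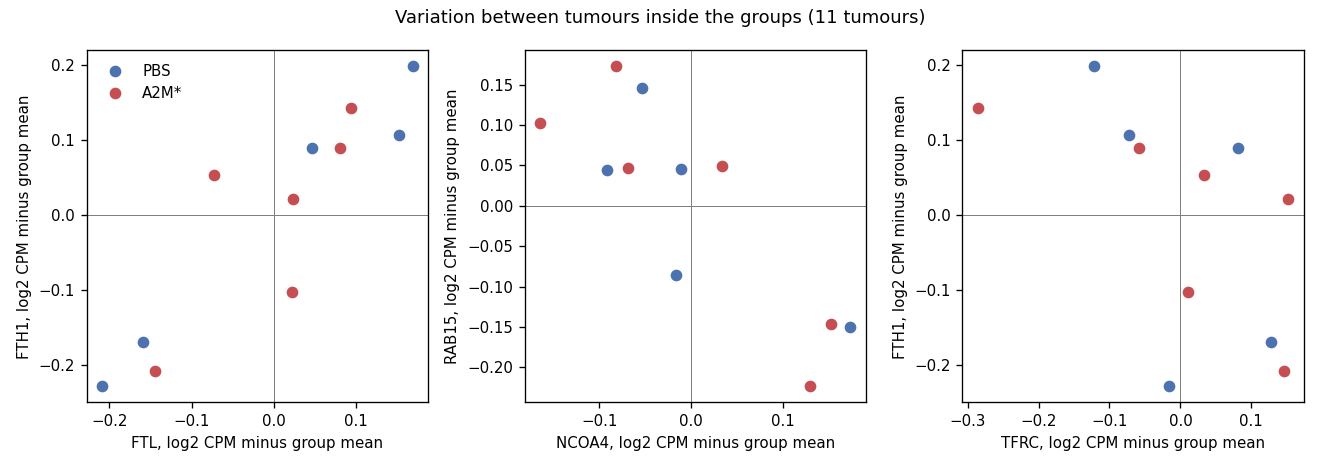
Each point is 1 tumour (PBS in blue, A2M* in red), with log2 CPM minus the mean of its own group on both axes. FTH1 goes with FTL (r 0.900), RAB15 runs against NCOA4 (r -0.837) and FTH1 against TFRC (r -0.581), none past an adjusted p of 0.05.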

How the data were processed

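RNA of 5 PBS and 6 A2M* tumours was sequenced by the authors as single reads from TruSeq RNA v2 libraries, after which bcl2fastq 1.8.4 was used for read extraction, xenome to set aside mouse reads, TopHat v2 for mapping to hg19 with RefSeq, and featureCounts. The deposited files hold raw counts per gene, RPM (counts scaled to the counted reads of a library) and RPKM by exon length, as the authors computed them. RPM recomputed from the counts differed by at most 4.99e-07.

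The members and gene lists were chosen with earlier results of these data known. Groups were taken from the labels. Tumour numbers are not shared by the groups, so nothing was paired. No 2 libraries agreed within sampling noise (chi-square per degree of freedom 8.91 to 63.0 over 55 pairs). Counts were tested with edgeR 4.0.16 (TMM, filterByExpr, quasi-likelihood test, Benjamini-Hochberg over 16630 genes, adjusted p of 0.01), without covariates. DESeq2 1.42.0 and limma 3.58.1 were alternatives, with other scalings, filters and thresholds and each tumour left out. Correlations used log2 CPM (prior count 2). Named pathway genes are the 3 with the smallest p in each direction, since none passed. The genes most like REP15 and TFRC are the 5 with the highest r over 11 tumours with genes averaging below 0 in log2 CPM left out. The fits were tested on simulated data. Hairpins were read from GENCODE 44 transcripts lifted to GRCh37, and the promoter from that genome. Scale factors were 0.958 to 1.03, and 3 counts equal 0.0836 to 0.177 RPM. 1 erythroid marker is not reported here and was left out of its list. Floors cover counting error only, while the intervals of fold changes also include the spread between tumours. The edgeR p-values set a difference between the groups against the variation between these tumours.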

Additional observations from a re-analysis of the deposited data

Results flagged for a closer look

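NCOA4 in the PBS tumour PC3_tumor_126 stood far above the other PBS tumours, at 138.1 CPM against 114.8 to 121.4 CPM, with a gap of 0.716 of the whole range of its group. Of 20 groups of values searched (10 genes in 2 groups), 1 had such a tumour, and chance alone gives about 1 in 20.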

How the results depend on the processing

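The log2 fold changes of the 10 genes kept their direction in 174 of 180 alternative values. Those that turned belong to the near-level genes: IREB2 was at 0.0113 with library size as the only scaling, IREB2 ran from -0.0717 to 0.0538 and ACO1 from -0.0201 to 0.0714 with single tumours left out. REP15 ran from 0.92 to 1.15, RAB15 from -0.25 to -0.17, TFRC from -0.14 to -0.061 and FTH1 from -0.26 to -0.15 over the same fits. None of the 9 members other than REP15 passed under any alternative run, where their adjusted p ranged from 0.425 (RAB15, lowest) to 1.00. At an unadjusted p below 0.05 they numbered 2 in the fit reported, 3 by DESeq2, 1 with upper quartile scaling, library size only or limma-voom, and 0 to 2 with single tumours left out. Genes past the threshold numbered 0 by edgeR, 1 by DESeq2 (REP15) and 241 where both tools gave 0.01 or less before adjustment. Of the pathway genes 6 met the last rule, against 0 in the fit reported. REP15 was chosen by this same difference, so nothing is read from its call or its range. With single tumours left out, 682 to 1684 genes had an unadjusted p below 0.05. Correlated pairs numbered 0 by Pearson's r, 1 by Spearman's rho and 0 to 1 with single tumours left out (1 without the A2M* tumour PC3_tumor_128 or PC3_tumor_131). The order of levels was the same in 12 of 12 settings, with 1 to 2 overlapping neighbours when tumours were left out (1 without the PBS tumour PC3_tumor_126) and 3 when RPKM came from TMM-scaled counts. The cause of these shifts was not tested. At 43 to 144 reads, REP15 is the member that depth limits most.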

Other observations

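Across 14964 genes averaging 0 or more in log2 CPM, those most like REP15 among tumours of the same group, by Pearson's r over 11 tumours, were TIGD6 (r 0.953), PPP1R10 (r 0.892), NS3BP (r 0.871), SMARCAL1 (r 0.867) and GSPT2 (r 0.864). PPP1R10 encodes a nuclear subunit of protein phosphatase 1, SMARCAL1 a helicase that acts at stalled replication forks, and GSPT2 a translation termination factor. None shares the group difference of REP15, their log2 fold changes lying at 0.06, 0.07, 0.06, 0.10 and 0.26. Those most like TFRC were SPATS2L (r 0.952), DDX19A (r 0.911), CYLD (r 0.895), ATMIN (r 0.887) and RCL1 (r 0.879). None of these 10 genes is on the iron lists. The points share library and depth, and the coefficients are the highest of many, so they are a description with no p.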
